A study of Mus musculus with 6 samples.

Results

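The Notch genes described here were the receptors Notch1, Notch2, Notch3 and Notch4, the ligands Dll1, Dll4, Jag1 and Jag2, and the target genes Hes1 and Hey1. They were found by gene symbol in the count tables of 6 mouse lung tumors, where all 10 were present among 31130 genes. The tables came from 3 tumors of the LC model (lung cancer alone) and 3 tumors of the IP+LC model (lung cancer with interstitial pneumonia). Both models used female mice of 6–8 weeks, and the methods list C57BL/6 and B6D2F1/Crl mice. The paper's results pair C57BL/6 with the Lewis lung carcinoma (LLC) line and B6D2F1/Crl with the KLN205 line. Its sequencing methods name neither strain nor line, and LLC is taken here as the injected line. LLC derives from a mouse lung tumor and carried enhanced green fluorescent protein. The genotype is labelled WT in all 6. LLC cells were injected through the pleura into the left lung on day 14 in both models, and the tumors were taken on day 21. Only the IP+LC mice had received bleomycin, an antitumor drug used to cause fibrosis in the lung, which they aspirated at 2.0 mg/kg body weight on day 0, and the scheme gives saline in its place to the LC model. The labels do not state whether each tumor came from a different mouse, so p-values measure only the spread between these samples.

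Notch receptors are single-pass membrane proteins that are switched on by ligands on a neighboring cell. Ligand binding lets ADAM proteases and then gamma-secretase cut the receptor, and the freed intracellular domain enters the nucleus, joins the DNA-binding protein Rbpj and turns on target genes such as those of the Hes and Hey families, which encode repressors. In the lung and in tumors, Notch4, Dll4 and Hey1 are known from endothelium, Notch3 from pericytes and smooth muscle, and Jag1, Notch2 and Hes1 from several cell types including airway epithelium.

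In the barcoded bulk libraries each captured transcript molecule carried a unique molecular identifier (UMI), and the values are UMIs per gene. The libraries held 592733 to 1631066 UMIs, with the lowest total in LC replicate 1. That library also stood apart in its pattern: over the 11240 tested genes, Pearson's r on log2(CPM + 4) was 0.800 and 0.840 with the other LC tumors and 0.796 to 0.822 with the IP+LC tumors, against 0.962 between the other LC tumors and 0.968 to 0.973 within the IP+LC group. CPM here are UMIs per 1000000 UMIs after TMM scaling, a correction for differences in library composition. The tissue label names lung cancer cells, but the tumors also held RNA of the host lung: the 9 airway markers found summed to between 48716 and 57395 CPM in the LC tumors and to between 3350 and 7167 CPM in the IP+LC tumors. For the members, values without LC replicate 1 are given beside those with it wherever it decided a call.

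Of the 10 genes, 9 had enough UMIs for a test and Notch1 did not. Notch4, Dll4, Hes1 and Hey1 fell in the IP+LC tumors, each by more than 3-fold, and no gene of the 10 rose (edgeR's quasi-likelihood test, adjusted p below 0.1). DESeq2 and limma voom also gave 0 members that rose, as did edgeR at an unadjusted p below 0.05. In edgeR with library size only, or with no filter on low counts, Notch2 rose. The fall concerned 4 of 9 tested members, beside 19.6% of all tested genes that were lower and 16.8% that were higher by the same rule. A fall of at least 3-fold that passed the test was found for 7.14% of all tested genes. The median log2 fold change was -1.19 over the 9 members and 0.02 over all tested genes. Without LC replicate 1, 7 members were lower and 1, Notch2, was higher, where 28.3% and 27.8% of all genes were lower and higher. In bulk tissue, fewer cells of a type and less RNA per cell cannot be told apart.

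**Figure D1:**
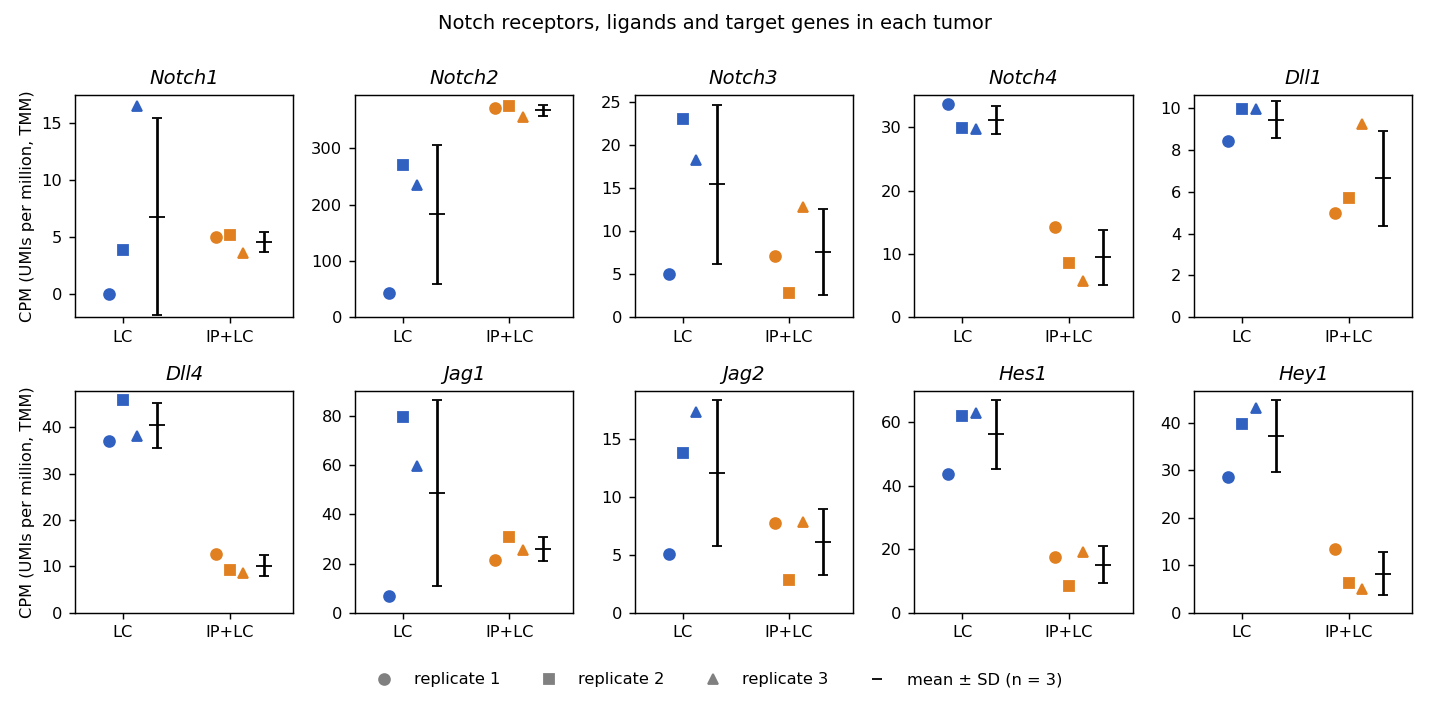
UMIs per 1000000 after TMM scaling (CPM, vertical axis) of the 10 genes in each of the 3 LC (blue) and 3 IP+LC (orange) tumors, with the marker shape giving the replicate number and the bars the mean ± SD (n = 3). Notch4, Dll4, Hes1 and Hey1 lie lower in all 3 IP+LC tumors than in any LC tumor, Notch2 lies higher, and LC replicate 1 (circle) lies far below the other LC tumors for Notch2, Notch3, Jag1 and Jag2.

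The promoters of the receptor and the ligand that fell, Notch4 and Dll4, and of the receptor that was higher in all IP+LC tumors, Notch2, are shown side by side because these genes moved differently. Each sequence holds the 250 bases before the gene's start in RefSeq (build GRCm38.p6), read in the direction of transcription. They lie at chr17:34564045-34564294 (plus strand) for Notch4, chr2:119325534-119325783 (plus strand) for Dll4 and chr3:98013288-98013537 (plus strand) for Notch2. Capitals mark GGAA and its reverse complement TTCC, the core letters bound by ETS factors, a family that includes the endothelial factor Erg, and were chosen after the results were seen.
Notch4: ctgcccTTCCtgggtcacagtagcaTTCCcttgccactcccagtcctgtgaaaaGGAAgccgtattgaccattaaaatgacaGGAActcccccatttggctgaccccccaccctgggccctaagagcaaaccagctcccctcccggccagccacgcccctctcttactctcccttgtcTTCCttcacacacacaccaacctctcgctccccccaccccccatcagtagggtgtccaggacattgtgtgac
Dll4: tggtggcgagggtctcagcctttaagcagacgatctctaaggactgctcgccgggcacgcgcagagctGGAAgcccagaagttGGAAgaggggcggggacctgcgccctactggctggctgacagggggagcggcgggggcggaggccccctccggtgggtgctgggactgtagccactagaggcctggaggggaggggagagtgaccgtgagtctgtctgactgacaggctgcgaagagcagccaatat
Notch2: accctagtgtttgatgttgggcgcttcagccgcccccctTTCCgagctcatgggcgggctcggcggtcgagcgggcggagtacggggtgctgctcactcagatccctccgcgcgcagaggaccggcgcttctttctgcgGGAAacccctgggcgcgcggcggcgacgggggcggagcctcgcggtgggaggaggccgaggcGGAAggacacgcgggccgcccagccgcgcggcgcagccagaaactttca
The Notch4 window held 5 such matches, the Dll4 window 2 and the Notch2 window 3. Over 32851 mouse promoters of the same length the median was 3, and 18.0% held at least 5. Promoter sequences were matched for 8 of the 10 genes, in 9 windows, and not for Hes1 and Hey1. The gene coordinates printed here come from GENCODE, and its gene starts differ from those of RefSeq. The windows of Notch1 and Jag2 and a Dll1 window lay wholly within the GENCODE gene, with far ends 12841, 281 and 1049 bases in. The windows of Notch4, Notch2 and Jag1 held 27, 11 and 124 bases at or after the GENCODE start. TGGGAA or its reverse complement TTCCCA, the core of the Rbpj motif, was in 0 of the 9 windows and in 21.6% of all promoters. The longer form GTGGGAA (reverse complement TTCCCAC), which contains it, was in 0 of the 9 and in 5.42% of all. These are matches of letters in these windows.

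Among the receptors, Notch4 (ENSMUSG00000015468, chr17:34564268-34588503 on GRCm38) had 20, 39 and 36 UMIs in LC replicates 1, 2 and 3 and 20, 15 and 8 UMIs in the IP+LC replicates. On the CPM scale the LC replicates had 33.7, 29.9 and 29.8 and the IP+LC replicates 14.2, 8.57 and 5.68. The LC tumors lay close together and every IP+LC tumor lay below all of them. The mean fell from 31.1 ± 2.22 to 9.48 ± 4.32 CPM (SD, n = 3), a log2 fold change of -1.70 (SE 0.33, adjusted p = 0.00677 from edgeR), or 3.25-fold lower. Without LC replicate 1 it was -1.67 (adjusted p = 0.000686).

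Notch2 (ENSMUSG00000027878, chr3:98013527-98150361), a receptor used in many tissues, had 25, 353 and 283 UMIs in the LC tumors and 523, 657 and 501 UMIs in the IP+LC tumors. In CPM, LC replicates 1, 2 and 3 had 42.1, 270.4 and 234 and the IP+LC replicates 371, 375 and 356. All IP+LC tumors were above all LC tumors and had an SD of 10.1 CPM, whereas LC replicate 1 was 5.99-fold below the mean of the other LC tumors. The log2 fold change of 0.99 (SE 0.50) did not pass the test (adjusted p = 0.176 from edgeR). Without LC replicate 1 it was smaller, 0.52 (SE 0.13), and passed (adjusted p = 0.00491). It also passed with all tumors when libraries were scaled by library size only (1.18, adjusted p = 0.0924) or with no filter on low counts (1.101, adjusted p = 0.000967).

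Notch3 (ENSMUSG00000038146, chr17:32120820-32166852), the receptor known from pericytes and smooth muscle, had 3, 30 and 22 UMIs in the LC tumors and 10, 5 and 18 in the IP+LC tumors. In CPM, the LC replicates had 5.05, 23.0 and 18.2 and the IP+LC replicates 7.09, 2.86 and 12.8, so the groups overlapped through LC replicate 1. The log2 fold change was -1.19 (SE 0.56, adjusted p = 0.150 from edgeR) with all tumors and -1.51 (SE 0.43, adjusted p = 0.00878) without LC replicate 1. It also passed without IP+LC replicate 3, at -1.78 (adjusted p = 0.0979).

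Notch1 (ENSMUSG00000026923, chr2:26457903-26516663), the receptor best known from T cells and developing vessels, had 0, 5 and 20 UMIs in the LC tumors and 7, 9 and 5 in the IP+LC tumors, too few for the test. The count of 0 in LC replicate 1 allows a level of up to 5.06 per 1000000 UMIs, taking 3 UMIs as the limit, and this limit covers counting error only. At this depth no difference could be shown.

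The 4 receptors together gave 48, 427 and 361 UMIs in the LC tumors and 560, 686 and 532 UMIs in the IP+LC tumors. In this method a molecule is counted once at its 3′ end, so a share of UMIs is not a share per transcript length. Notch2 supplied 52.1% of the receptor UMIs in LC replicate 1 (95% Wilson interval 38.3 to 65.5%), 82.7% in replicate 2 (78.8 to 86.0%) and 78.4% in replicate 3 (73.9 to 82.3%). In the IP+LC tumors its share was 93.4% (91.0 to 95.2%), 95.8% (94.0 to 97.0%) and 94.2% (91.8 to 95.9%). The share was above every LC tumor in each IP+LC tumor, with intervals, which cover counting error only, that did not meet. Notch4 supplied 41.7, 9.13 and 9.97% in the LC tumors and 3.57, 2.19 and 1.50% in the IP+LC tumors.

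**Figure D2:**
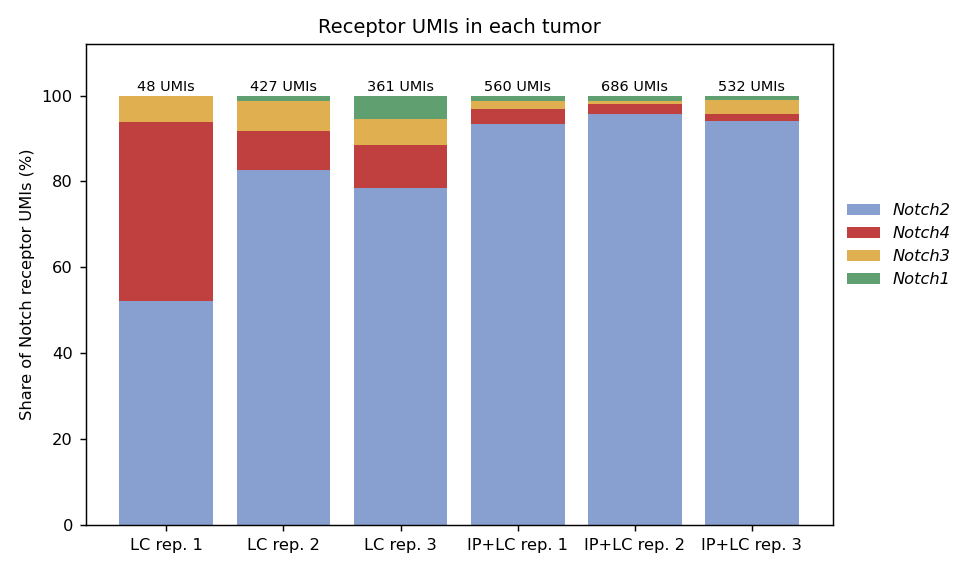
Share of the UMIs of the 4 Notch receptors (vertical axis, percent) that each receptor supplied in each tumor, with the total of receptor UMIs above each bar. Notch2 supplied 93.4 to 95.8% in the IP+LC tumors and 52.1 to 82.7% in the LC tumors, and the share of Notch4 was smaller in every IP+LC tumor than in any LC tumor.

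Among the ligands, Dll4 (ENSMUSG00000027314, chr2:119325784-119335962), the ligand of sprouting and arterial endothelium, had 22, 60 and 46 UMIs in the LC tumors and 18, 16 and 12 UMIs in the IP+LC tumors. In CPM, the LC replicates had 37.1, 46.0 and 38.1 and the IP+LC replicates 12.8, 9.14 and 8.52. The lowest LC tumor was well above the highest IP+LC tumor. The mean fell from 40.4 ± 4.87 to 10.1 ± 2.29 CPM (SD, n = 3), with a fitted log2 fold change of -2.002 (4.01-fold lower, SE 0.26, adjusted p = 0.00138 from edgeR), the smallest adjusted p among the 9 tested members. It was -2.07 when LC replicate 1 was left out.

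Jag1 (ENSMUSG00000027276, chr2:137081456-137116644), a ligand of the Jagged class, had 4, 104 and 72 UMIs in the LC tumors and 30, 54 and 36 UMIs in the IP+LC tumors. LC replicates 2 and 3, at 79.7 and 59.6 CPM, lay above the IP+LC range of 21.3 to 30.8 CPM, and LC replicate 1, at 6.74 CPM, lay below it. The log2 fold change was therefore -1.01 (SE 0.53, adjusted p = 0.195 from edgeR) with all tumors and -1.44 (SE 0.21, adjusted p = 6.3e-05) without LC replicate 1.

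Jag2 (ENSMUSG00000002799, chr12:112907819-112929776), the other Jagged ligand, had 3, 18 and 21 UMIs in the LC tumors and 11, 5 and 11 UMIs in the IP+LC tumors. LC replicate 1 again lay within the IP+LC range, at 5.05 CPM between 2.86 and 7.81 CPM. The log2 fold change was -1.12 (SE 0.49, adjusted p = 0.124 from edgeR), and -1.39 (SE 0.41, adjusted p = 0.0111) without that tumor.

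Dll1 (ENSMUSG00000014773, chr17:15367354-15376872), a ligand of the same Delta class as Dll4, had 30 UMIs in total in each group, in libraries of unequal depth. In CPM, the LC replicates had 8.42, 9.96 and 9.94 and the IP+LC replicates 4.97, 5.71 and 9.23. The highest IP+LC tumor was above the lowest LC tumor, and the log2 fold change of -0.54 (SE 0.37) did not pass with all tumors (adjusted p = 0.308 from edgeR) or without LC replicate 1 (-0.61, adjusted p = 0.224). Other genes in the annotation overlap 20.5% of its exonic bases, the largest share among the members. That share was 9.76% for Notch1, 6.03% for Notch3, 5.56% for Dll4 and 5.02% for Notch2, and 0 for the other 5. Since the use of strand in the counting is not stated, the UMIs of Dll1 and of these 4 genes are less certain.

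Both target genes fell. Hes1 (ENSMUSG00000022528, chr16:30064384-30067796), a repressor that Notch induces in many cell types, had 26, 81 and 76 UMIs in the LC tumors and 25, 15 and 27 UMIs in the IP+LC tumors. In CPM, the LC replicates had 43.8, 62.0 and 63.0 and the IP+LC replicates 17.7, 8.57 and 19.2. The groups did not overlap, and the mean fell from 56.3 ± 10.8 to 15.2 ± 5.76 CPM (SD, n = 3). The log2 fold change was -1.94 (SE 0.31, adjusted p = 0.00305 from edgeR), or 3.83-fold lower, and -2.10 (SE 0.26) without LC replicate 1.

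Hey1 (ENSMUSG00000040289, chr3:8663359-8667256), a repressor of the related Hey family that acts in arterial endothelium and other cells, had 17, 52 and 52 UMIs in the LC tumors and 19, 11 and 7 UMIs in the IP+LC tumors. In CPM, the LC replicates had 28.6, 39.8 and 43.1 and the IP+LC replicates 13.5, 6.28 and 4.97. No IP+LC tumor reached the level of an LC tumor. The mean fell from 37.2 ± 7.58 to 8.24 ± 4.58 CPM (SD, n = 3), with a log2 fold change of -2.21 (SE 0.36, adjusted p = 0.00352 from edgeR). At 4.62-fold lower this was the largest change among the 9 tested members, and it was -2.36 without LC replicate 1.

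**Figure D3:**
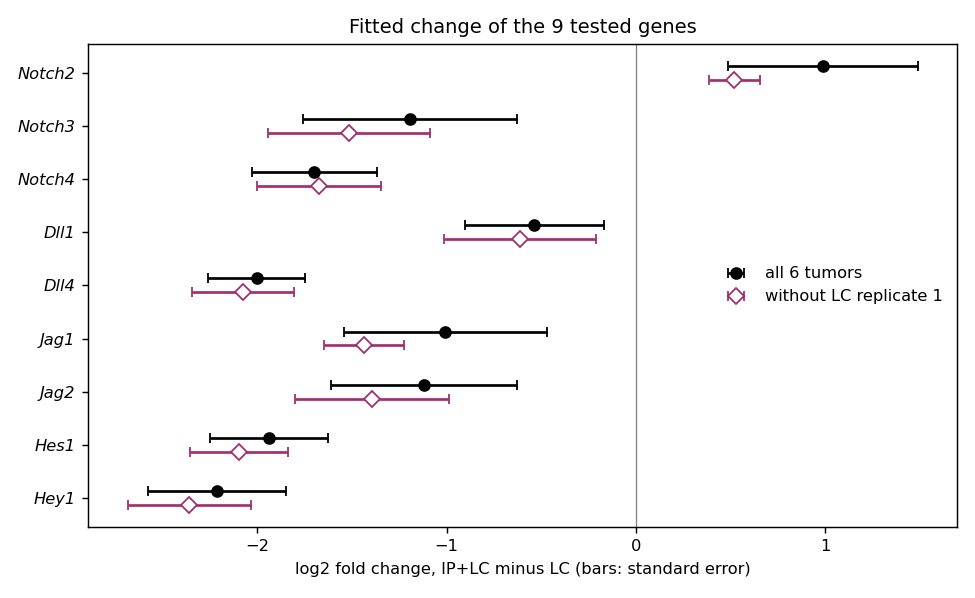
Fitted log2 fold change of the 9 tested genes (horizontal axis, IP+LC minus LC, bars ± standard error) with all 6 tumors (filled circles) and without LC replicate 1 (open diamonds). Notch4, Dll4, Hes1 and Hey1 hold their place between -1.67 and -2.36, while the error bars of Notch2 and Jag1 shrink once LC replicate 1 is left out.

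The members thus differed in how much LC replicate 1 departed from the rest of its group. The mean of LC replicates 2 and 3 was 0.886 to 1.45 times the level in LC replicate 1 for Notch4, Dll1, Dll4, Hes1 and Hey1. For Jag2, Notch3, Notch2 and Jag1 it was 3.09, 4.08, 5.99 and 10.3 times that level. In groups of all 6 tumors, 4 of the 9 tested members were lower in IP+LC without overlap, where 21.5% of all tested genes were, and 1 was higher without overlap, where 21.6% were. Without LC replicate 1, 8 of 9 were lower without overlap, where 32.6% of all tested genes were, and 1 was higher, where 34.4% were.

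Across the 6 tumors the levels of Notch4, Dll4, Hes1 and Hey1 ran together. Pearson's r of log2(CPM + 4) was 0.98 between Dll4 and Hey1, 0.97 between Notch4 and Hey1 and between Notch4 and Dll4, and 0.86 to 0.94 for the pairs with Hes1. Between Notch2 and Notch4 it was -0.64. These values come from 6 libraries, and each gene was measured across the same groups and at the same unequal depths. The genes outside the pathway list with the pattern most like each member were, by the same r, Aldh1a2 (0.999) and Cd163 (0.997) for Notch4, Acadm (0.998) for Dll4, 6820408C15Rik and Fgf1 (both 0.998) for Hes1, and Dock6 (0.997) and Mid2 (0.996) for Hey1. For Notch2 they were Rsl24d1 and Smad1 (both 0.998), for Jag1 2210016L21Rik (0.998) and Fbxo33 (0.993), for Jag2 Clip4 (0.992) and Dtna (0.987), for Notch3 Cog5 and Ankrd33b (both 0.976), and for Dll1 Zfp709 (0.997) and Zmat2 (0.992). Each r was picked as among the highest of all tested genes over only 6 libraries, so it is no test of a link between the genes.

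Endothelial markers moved with these genes. All 12 listed endothelial genes (such as Pecam1, Cdh5 and Kdr) were tested and all 12 were lower in the IP+LC tumors. Their summed level was 1927, 3011 and 2592 CPM in the LC tumors and 660, 563 and 719 CPM in the IP+LC tumors. The 5 arterial markers (Gja5, Gja4, Efnb2, Sox17 and Bmx) were lower as well, from 123 to 187 CPM in the LC group and from 41.1 to 56.1 CPM in the IP+LC group. None of these 17 markers was at 0 in any tumor.

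The members were therefore also expressed per 1000 UMIs of the 12 endothelial markers in the same tumor. On that scale Dll4 was at 19.2, 15.3 and 14.7 in the LC tumors and at 19.4, 16.2 and 11.9 in the IP+LC tumors. Hes1 was at 22.7, 20.6 and 24.3 against 26.9, 15.2 and 26.7, Notch4 at 17.5, 9.92 and 11.5 against 21.5, 15.2 and 7.91, and Hey1 at 14.9, 13.2 and 16.6 against 20.4, 11.2 and 6.92. The groups overlapped for all 4 genes. The ratio of the group means, IP+LC over LC, was 0.964 for Dll4, 1.02 for Hes1, 1.15 for Notch4 and 0.861 for Hey1. An exact two-sided permutation test of 3 against 3 tumors cannot give a p below 0.1, so it cannot pass the limit on this scale in either direction. These 4 genes were singled out by a fall about as large as that of the marker sum, so ratios near 1 restate both falls and are no separate result. The median ratio over all tested genes was 3.84.

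**Figure D4:**
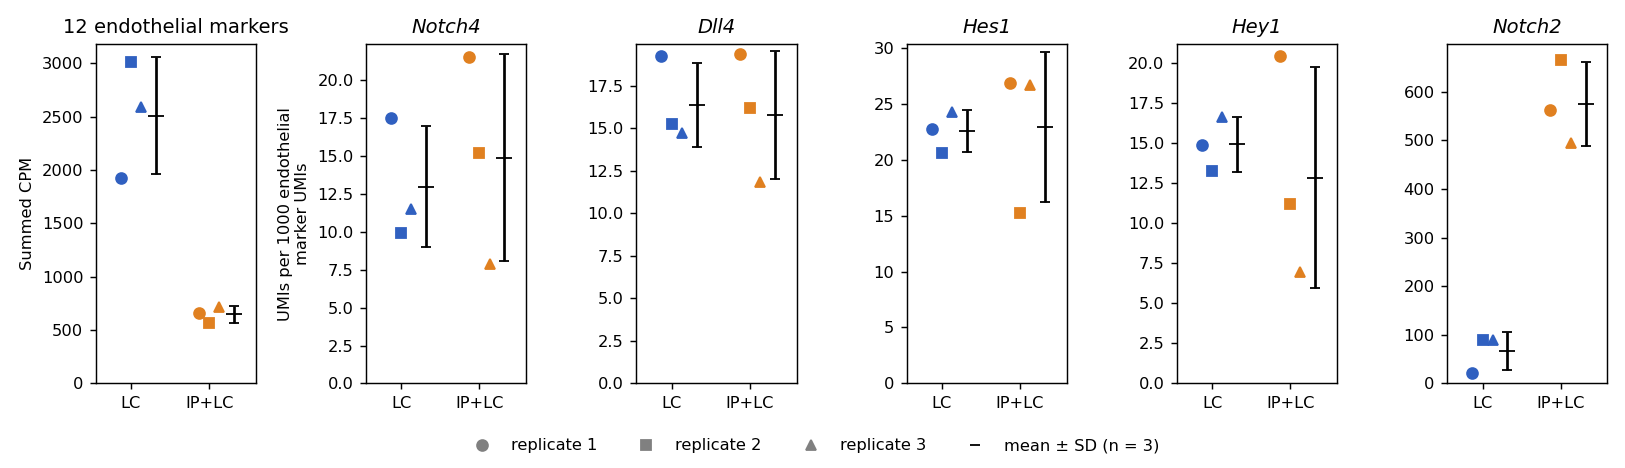
Summed CPM of the 12 endothelial markers (left) and UMIs of Notch4, Dll4, Hes1, Hey1 and Notch2 per 1000 endothelial marker UMIs (other panels) in each tumor, with the mean ± SD (n = 3). The marker sum is lower in all IP+LC tumors, the groups overlap for Notch4, Dll4, Hes1 and Hey1 on the relative scale, and Notch2 lies far higher in the IP+LC tumors.

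Notch2 had 21.9, 89.8 and 90.4 UMIs per 1000 endothelial marker UMIs in the LC tumors and 562, 666 and 495 in the IP+LC tumors. Its ratio of group means was 8.53, which 6.75% of all tested genes reached or exceeded, with all IP+LC tumors above all LC tumors (exact permutation p = 0.1, the smallest possible). Dll1 had means of 3.84 ± 0.532 in the LC and 10.2 ± 2.66 in the IP+LC group and Jag1 of 17.7 ± 12.4 and 40.9 ± 12.2 (SD, n = 3), both without overlap (exact permutation p = 0.1 for each). Thus 3 of the 10 members were higher without overlap on this scale, where 87.7% of all tested genes were higher and 1.05% were lower. Jag2, Notch3 and Notch1 overlapped between the groups.

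Markers of other cell types moved too. Of the 10 tested markers of pericytes and smooth muscle, 8 were lower, and their sum was 839 to 1309 CPM in the LC tumors and 263 to 352 CPM in the IP+LC tumors. Per 1000 UMIs of these markers Notch3 was at 6.02, 17.6 and 16.3 in the LC tumors and at 20.9, 10.8 and 36.3 in the IP+LC tumors, so that the groups overlapped. All 8 tested airway markers and 7 of 8 tested alveolar markers were lower, the alveolar sum being 36620 to 45765 CPM in the LC tumors and 6595 to 11750 CPM in the IP+LC tumors. Of 5 proliferation genes 4 were higher, with sums of 97.3 to 372 CPM in the LC tumors, the highest in LC replicate 1, and 847 to 1005 CPM in the IP+LC tumors. Fibroblast markers had 2 higher and 4 lower of 7 tested, macrophage markers 2 higher and 1 lower of 7, and B cell markers 4 lower of 4, while the 5 tested T cell markers had log2 fold changes from -0.21 to 1.30 that did not pass. When LC replicate 1 was left out, macrophage markers had 5 higher and 1 lower of 7, fibroblast markers 3 higher and 4 lower, and all 5 proliferation genes were higher and all 8 alveolar markers lower. The part of each cell type in the changes of the members was not tested.

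The rest of the pathway was read from a list of 47 further genes, of which 46 were in the tables and 36 had enough UMIs for a test. Dll3 is not analysed here. In the IP+LC tumors 4 of the 36 were higher and 9 were lower (edgeR, adjusted p below 0.1), with a median log2 fold change of 0.08. The shares of all tested genes were 16.8% higher and 19.6% lower. Without LC replicate 1, 9 were higher and 10 were lower, where 27.8% and 28.3% of all tested genes were. The 6 added calls were Pofut1 (log2 fold change 1.17, adjusted p = 0.0182 from edgeR, against 0.94 and 0.112 with all tumors), Ncstn (0.48 and 0.0400, against 0.49 and 0.105), Dtx4 (0.53 and 0.0929, against 0.53 and 0.125), Adam10, Snw1 and Cir1. The target genes Hes5, Hes7 and Hey2 were not tested: Hes5 and Hes7 had 0 to 3 UMIs in each tumor, and Hey2 had 0, 10 and 13 in the LC and 0, 6 and 0 in the IP+LC tumors. Heyl, a further Hey family repressor, had 21.9, 13.8 and 17.4 CPM in the LC tumors and a mean of 7.63 ± 2.50 CPM (SD, n = 3) in the IP+LC tumors, with a log2 fold change of -1.15 (SE 0.35, adjusted p = 0.0395 from edgeR). All 3 target genes that could be tested were therefore lower.

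The steps that prepare and cut the receptor did not move in one direction. Among the glycosyltransferases that modify the receptor's extracellular part, Mfng (Manic fringe) fell from 40.6 ± 8.95 to 11.7 ± 2.16 CPM (log2 fold change -1.83, adjusted p = 0.00207 from edgeR) and Rfng (Radical fringe) from 22.0 ± 3.47 to 13.5 ± 2.49 CPM (-0.73, adjusted p = 0.0795), whereas Lfng (Lunatic fringe) was at 0.08 on the same scale (adjusted p = 0.860). Of the proteases, Adam17 rose from 37.2 ± 6.58 to 73.8 ± 2.59 CPM (1.01, adjusted p = 0.00863) and Furin, which cuts the receptor on its way to the surface, from 60.3 ± 29.2 to 112.8 ± 13.4 CPM (0.86, adjusted p = 0.0780). Adam10 had a log2 fold change of 0.50 that did not pass with all tumors (adjusted p = 0.106) and of 0.39 that passed without LC replicate 1 (adjusted p = 0.0504). Of 6 tested gamma-secretase genes, Psenen (-0.65, adjusted p = 0.0871), Aph1b (-1.05, adjusted p = 0.0452) and Aph1c (-1.58, adjusted p = 0.0108) were lower. Aph1b and Aph1c are near-identical copies that share stretches of at least 81 nucleotides, so their separate counts are uncertain.

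In the nucleus, Rbpj rose from 52.0 ± 12.7 to 105 ± 5.73 CPM (SD, n = 3), with a log2 fold change of 1.04 (SE 0.22, adjusted p = 0.0105 from edgeR), and all IP+LC tumors were above all LC tumors. Stretches of its transcripts of at least 81 nucleotides match those of 113 other genes, and for Furin and Adam17 the number is 86 and 65, so part of their UMIs could belong elsewhere. The same doubt applies, with fewer matching genes, to Ncstn (29), Cir1 (5) and Psenen (4). Cir1 and Psenen also share 11.7 and 9.33% of their exonic bases with other genes. The other 5 genes of the nuclear complex and the 5 corepressors had log2 fold changes between -0.45 and 1.16 and adjusted p-values between 0.118 and 0.736. The nuclear cofactor Snw1, which had 1 UMI in LC replicate 1 and shares 44.2% of its exonic bases with another gene, moved from 1.16 to 0.74 without that tumor and passed (adjusted p = 0.0119 from edgeR), and the corepressor Cir1 moved from -0.45 to -0.77 and passed (adjusted p = 0.0047). Numb, an inhibitor that removes the receptor from the membrane, fell from 62.8 ± 16.6 to 26.0 ± 2.25 CPM (-1.31, adjusted p = 0.00575). Of the ubiquitin ligases, Dtx3 (-0.81, adjusted p = 0.0356) and Mib1, which activates ligands (-0.82, adjusted p = 0.0427), were lower, and Neurl3 (0.75, adjusted p = 0.0729) was higher with groups that overlapped.

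**Figure D5:**
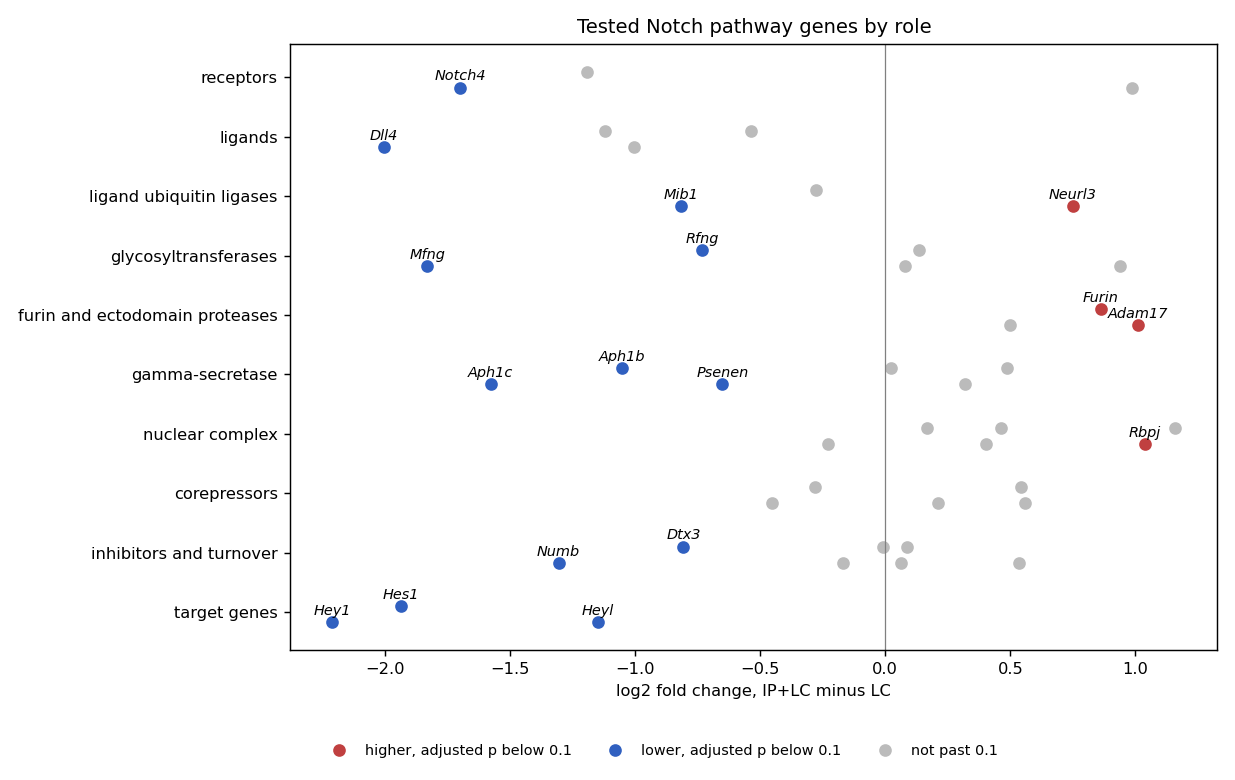
Fitted log2 fold change (horizontal axis, IP+LC minus LC) of the 45 tested Notch pathway genes, the 9 tested members included, in rows by role, with red for genes that were higher and blue for genes that were lower at an adjusted p below 0.1 and gray for the rest. The target genes and Notch4 and Dll4 lie to the left, Rbpj, Adam17, Furin and Neurl3 to the right, and the genes of the nuclear complex and the corepressors lie between -0.45 and 1.16.

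Of these 13 further calls, those of Rbpj, Adam17, Mfng, Numb and Aph1c held in each tumor left out. The other 8 were lost when at least 1 tumor was left out, with adjusted p-values (edgeR) of up to 0.161 for Mib1, 0.260 for Neurl3, 0.279 for Rfng, 0.238 for Furin, 0.146 for Aph1b, 0.251 for Psenen, 0.136 for Dtx3 and 0.124 for Heyl. Leaving out LC replicate 2 or LC replicate 3 ended 4 calls each, IP+LC replicate 1 or 3 ended 6 each, and IP+LC replicate 2 ended 7, while leaving out LC replicate 1 ended none. With all tumors, DESeq2 in place of edgeR ended 7 of the 13 (Mib1, Neurl3, Rfng, Aph1b, Psenen, Dtx3 and Heyl). This changed the test, the scaling and the genes tested (14066) together. Library size only ended the calls of Rfng and Psenen, and no filter on low counts ended those of Rfng, Aph1b and Psenen.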

How the data were processed

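Total RNA (180 ng per library) from 6 tumors was made into libraries with oligo-dT primers carrying a UMI of 10 nucleotides. The authors extracted UMIs with UMI-tools 1.1.1, discarded reads below 20 bp with Trim Galore 0.6.7, aligned to GRCm38 with HISAT2 2.2.1, assigned reads with featureCounts 2.0.1 and counted each different UMI per gene. The deposited values are these counts, not normalized. The annotation release and strand setting are not given in the sources used here. UMIs count molecules near the 3′ end, so low counts carry large counting error, and UMIs with sequencing errors were not merged.

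In R 4.3.3, edgeR 4.0.16 (filterByExpr with minimum count 10 and minimum total 15, TMM, quasi-likelihood test, Benjamini-Hochberg over all 11240 tested genes, limit of 0.1 as the study uses for its differentially expressed genes) compared 3 IP+LC with 3 LC libraries without a block. The alternatives were DESeq2 size factors or library size only, other filters, DESeq2 1.42.0, limma voom (limma 3.58.1), a replicate block, a limit of 0.05 and each library left out. Ratios to endothelial UMIs were compared by exact permutation tests (SciPy 1.17.1). Symbols came from the tables, coordinates from GENCODE M21, matching stretches (at least 81 nucleotides, 95% identity) from blastn 2.17.0+ and promoters from RefSeq.

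The named genes are all members, all further pathway genes past the limit and, per tested member, the 2 most correlated genes outside the pathway list, of which 1 is not reported here. The members, lists and tests were chosen with earlier results of these data known. Ratios over all genes, Notch3 per pericyte and smooth muscle UMI, the counts of overlap without LC replicate 1 and the GGAA search were added after seeing the data.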

Additional observations from a re-analysis of the deposited data

How the results depend on the processing

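No fitted log2 fold change of a member or called pathway gene reversed in any setting that could test it, and Notch4, Dll4, Hes1 and Hey1 passed in each such setting. Members that were higher numbered 1 with library size only and 1 with no filter on low counts, and 0 to 1 over the tumors left out. Members that were lower numbered 2 with at least 10 UMIs in every library, a filter that left only Notch2, Dll4 and Hes1 of the members, and 4 to 7 over the tumors left out. The counts over all tested genes in these settings are given below, beside those of the pathway genes. Notch2 passed with library size only (log2 fold change 1.18, adjusted p = 0.0924 from edgeR) and with no filter (1.101, adjusted p = 0.000967), with 0.52 to 1.37 over the tumors left out. With no filter Notch3 (-1.07, adjusted p = 0.0747) and Jag1 (-0.89, adjusted p = 0.0140) also passed. Over the tumors left out, Notch3 ranged from -1.78 to -0.74, Jag1 from -1.44 to -0.52 and Jag2 from -1.39 to -0.73.

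Of all pathway genes, 4 were higher and 13 lower. Higher were 11 with library size only, 8 with no filter, 7 with limma voom, 2 at a limit of 0.05 and 2 to 10 over the tumors left out. Among all 11240 tested genes, 1889 were higher in the comparison above, 2555 with library size only and 2146 with limma voom. They numbered 1316 at a limit of 0.05 and 859 to 3126 over the tumors left out. With no filter 2315 of 29423 genes were higher. Lower were 8 with at least 10 UMIs in every library, 7 with DESeq2 and 8 to 17 over the tumors left out. Among all tested genes, 2203 of 11240 were lower in the comparison above and 1315 to 3180 over the tumors left out. The count was 1586 of 7558 with at least 10 UMIs in every library and 1728 of 14066 with DESeq2. The causes were not tested. Library size only moved the median of all tested genes by 0.17 (log2), and 59.1% of calls were then higher in place of 46.2%. With no filter it moved by -0.31, over 29423 genes.

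The replicate numbers share only a name: deviations of same-numbered samples correlated at 0.03, -0.12 and 0.11. With the replicate block, 4 members were lower and 0 higher, where 1811 and 1602 of 11240 tested genes were. The calls of Rfng, Aph1b and Psenen were lost. The ratios to endothelial UMIs of Notch4, Dll4, Hes1 and Hey1 lay near 1 and changed sides of it in some settings: over the tumors left out their log2 values ranged from -0.17 to 0.50, -0.22 to 0.12, -0.11 to 0.25 and -0.72 to 0.08. The other tested members stayed above 1, with log2 values of 2.67 to 3.36 for Notch2, 0.46 to 1.31 for Notch3, 1.20 to 1.58 for Dll1, 0.72 to 1.62 for Jag1 and 0.71 to 1.36 for Jag2. Depth limits Notch1, Dll1, Jag2 and Notch3, which had at most 30 UMIs in every tumor. It also limits the IP+LC values of Notch4, Dll4 and Hey1, which had at most 20 UMIs in each IP+LC tumor.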
